A study of Sus scrofa with 36 samples.

Results

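In the thyroid glands of growing pigs, 10 genes were described because an earlier look at the same arrays had singled them out. They were selected on the log2 intensities of single pigs, which fell into a low and a high level or differed between breeds. They were LECT1, ASPG, AKR1E2, TMEM176B, TMEM176A, NPSR1, CACNA2D1, SH3KBP1, C1D and ZNF642. A probe was taken as a member when the array annotation gave it the name of a gene of this list, and 15 probes were found among 60305. The lead probe of C1D was included by its own number, since the array names it by a locus number, which the RefSeq list gives to C1D. All 15 passed the filter on dim signals, which kept 46222 probes, and these named 10704 genes. SH3KBP1, NPSR1, C1D, CACNA2D1 and ZNF642 had 2 probes each and the other 5 genes had 1. Since breed and the levels of single pigs chose the genes, breed levels are given here as a description without a test, and tests are restricted to temperature, which had no part in the choice.

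The samples were 36 castrated male pigs, each on an array of its own, in 6 groups of 6. The breeds were Creole (CR), Large White (LW) and their cross (F1), with 12 pigs each, and 18 pigs carried the label 24 °C and 18 the label 30 °C. The protocol text gives the heat as 32 °C for 5 days, and slaughter of the 24 °C pigs came ahead of it, so temperature and time of slaughter cannot be told apart. Each breed came from a few litters that the labels do not identify, so littermates entered as independent pigs, and a breed cannot be told apart from its few families. Pigs are named below by breed, labelled temperature and a replicate number that follows the order of the records and pairs nothing. The gland was whole tissue, in which fewer cells of a type and less RNA per cell cannot be told apart.

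The 10 genes share no pathway. LECT1, now named CNMD, encodes chondromodulin, a secreted protein of cartilage that restrains the growth of blood vessels. ASPG encodes an asparaginase, which splits asparagine into aspartate and ammonia, and AKR1E2 encodes an aldo-keto reductase. TMEM176A and TMEM176B are neighbouring genes for membrane proteins known from dendritic cells and macrophages. NPSR1 is the G protein-coupled receptor of neuropeptide S. CACNA2D1 is an accessory subunit of voltage-gated calcium channels, and SH3KBP1 is an adaptor protein that links activated surface receptors to endocytosis. C1D is a nuclear partner of the RNA exosome, and ZNF642, now named ZFP69, encodes a zinc finger protein of the KRAB class. None of these functions belongs to the synthesis of thyroid hormone, for which the gland is known.

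Each signal rested on a designed oligonucleotide of 60 bases, and for an array probe the bases decide which transcript, and which version of it, is read. The probes that carry the results are shown in lower case, 5′ to 3′, as the scanner files give them. The probes on which the annotation cites a protein entry, and that of SH3KBP1, are shown whole, and of the others the first 30 bases are shown, since the files do not say where in the transcript they lie. Neither the strand relative to the transcript nor sequence variants of the pigs under a probe were checked for any of them. A level given below is thus that of a probe signal, in which weaker binding and less RNA cannot be told apart. The SH3KBP1 bases are shown because a probe of another name on the same array has the identical 60 bases, and both probes of NPSR1 and of C1D are shown because the pair agreed in the former and not in the latter.
LECT1, first 30 bases: tacaatttgtcaaagacctcacctggacat
ASPG, first 30 bases: aagtgctgcctgctgtctaacctgaagctg
AKR1E2, first 30 bases: cccacaaggatgtttgatggctcataagtt
TMEM176B: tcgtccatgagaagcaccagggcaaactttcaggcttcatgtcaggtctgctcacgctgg
NPSR1, lead probe, first 30 bases: tgggcaagcagagggaactaaagaagcatg
NPSR1, other probe, first 30 bases: tgtcgggaaagaattgagaggcatgagatg
SH3KBP1, lead probe: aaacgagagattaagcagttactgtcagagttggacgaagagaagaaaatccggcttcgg
C1D, lead probe, first 30 bases: ctgtgctaggttccagataggatgactcca
C1D, other probe: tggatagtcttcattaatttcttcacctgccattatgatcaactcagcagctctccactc
The share of G and C ran from 35.0% to 55.0% over the 15 probes, which were the 5th and the 95th percentile over all probes of the array. Among the other probes of the array, the search for a shared run of 16 bases, on either strand, found no match to the 15 probes other than the SH3KBP1 twin.

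To describe how far a probe separated single pigs, its 36 log2 intensities were put in order and divided at the widest gap between neighbours that left at least 3 pigs on each side. A gap of at least 1 was found in 0.336% of 46162 tested probes with a value in every pig, a gap of at least 0.5 in 1.38% and a gap of at least 2 in 0.0758%. The lead probes of LECT1, TMEM176B, ASPG and NPSR1 had gaps of 4.23, 3.73, 3.24 and 2.37. AKR1E2 and SH3KBP1 followed with 0.59 and 0.58. With another background correction (normexp) the SH3KBP1 gap was 0.47, with the same pigs on each side. For C1D, ZNF642, TMEM176A and CACNA2D1 the gap was 0.25, 0.14, 0.13 and 0.07, so these 4 genes had no empty band of 0.5 between pigs. Of the 10 genes, 6 had a gap of at least 0.5, a limit set after the gaps were seen, and 4 had a gap of at least 1. Where a gene had 2 probes, the lead probe was the one with the wider gap, or for C1D the one that the choice of genes had named, so the widths describe the selection.

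**Figure D1:**
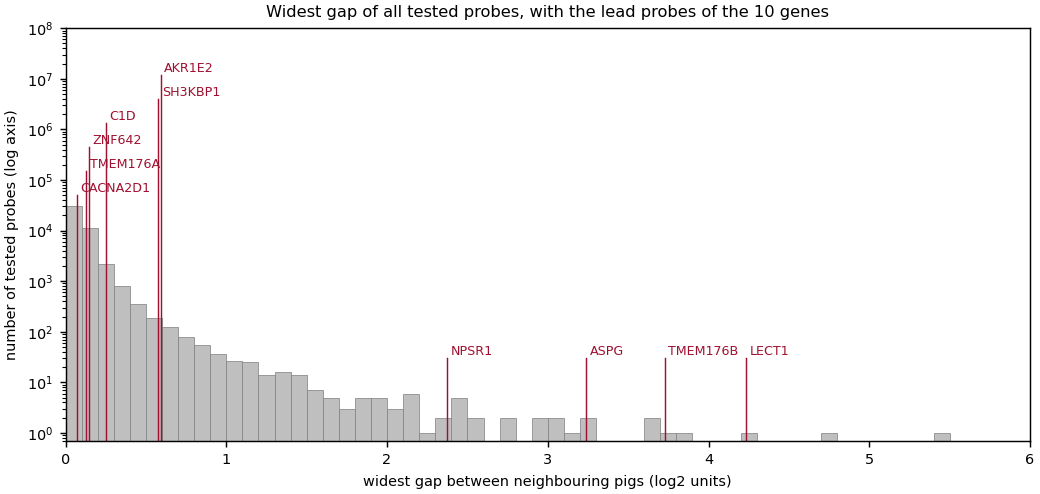
Number of tested probes (log axis) against the widest gap between neighbouring pigs in log2 units, for 46162 probes, with red lines at the lead probes of the 10 genes. LECT1, TMEM176B, ASPG and NPSR1 lie at gaps of 2.37 to 4.23 in the sparse right tail, and C1D, ZNF642, TMEM176A and CACNA2D1 lie among the bulk of the probes.

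LECT1 had the widest gap of the 10 genes. In CR pigs at 24 °C the log2 intensities had a lowest value of 5.18, a median of 5.28 and a highest of 13.28, and at 30 °C they were 5.30, 5.51 and 12.92. A single CR pig at each temperature, replicate 3 in both, was therefore high, and the other 10 lay between 5.18 and 5.75. In LW pigs the picture was turned over, with 10 of 12 pigs between 9.98 and 14.51 and the other 2 at 5.17 and 5.35. F1 pigs were divided, with 7 between 10.94 and 13.99 and 5 between 5.41 and 5.60. Over all pigs 17 were low and 19 were high. The low pigs spanned 0.58 log2 units and the high pigs 4.53, so the low level was a narrow band and the high level was not. The spot was well above background in 19 of 19 high pigs and in 5 of 17 low pigs, so the low level lay at the edge of detection, where a level has little more than an upper bound. The breed means were 6.67 ± 3.01 in CR, 9.90 ± 3.98 in F1 and 11.09 ± 3.16 in LW pigs (SD, n = 12 each), and the large SDs came with the 2 levels.

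ASPG was high in no CR pig. The 12 CR pigs lay between 6.87 and 7.38, with a mean of 7.11 ± 0.15 (SD, n = 12). In F1 pigs 10 of 12 were high, between 11.93 and 12.63, and the other 2 lay at 7.05 and 7.13. In LW pigs 7 of 12 were high, between 10.62 and 12.45, and the other 5 lay between 6.55 and 6.99. The cross thus held more high pigs than LW, and its high pigs were within 0.70 log2 units of each other while those of LW included values of 10.62 and 10.76. Unlike LECT1, the low level of this asparaginase gene was measured, since the spot was well above background in all 36 pigs.

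AKR1E2 was high mainly in the cross, with overlap and in smaller steps. In F1 pigs at 24 °C the values were 9.18, 8.19, 9.28, 9.37, 9.03 and 9.11, and at 30 °C they were 9.21, 9.26, 8.27, 7.81, 8.35 and 9.30. So 8 of 12 F1 pigs were high, 5 of them at 24 °C. The 12 CR pigs lay between 7.44 and 8.16 and 11 of the LW pigs between 7.54 and 8.22, and the remaining LW pig, replicate 1 at 24 °C, was at 8.94. The means were 7.89 ± 0.22 in CR, 8.86 ± 0.54 in F1 and 7.97 ± 0.36 in LW pigs (SD, n = 12 each). The gap of this aldo-keto reductase gene was between 8.35 and 8.94, much narrower than those of LECT1 or ASPG.

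TMEM176B had the sharpest high level. In CR pigs at 24 °C the values were 11.73, 7.26, 11.77, 11.75, 11.63 and 7.29, and at 30 °C they were 11.93, 11.90, 11.77, 6.54, 11.69 and 7.85. Thus 8 of 12 CR pigs were high. In F1 pigs 3 of 12 were high, between 11.64 and 11.79, and the other 9 lay between 7.14 and 7.90. All 12 LW pigs were low, between 6.31 and 7.30. The 11 high pigs of both breeds fell within 0.29 log2 units, against 1.60 for the 25 low pigs. The spot was well above background in all 36 pigs.

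TMEM176A, whose gene adjoins TMEM176B, showed no such pattern. Its probe was dim, between 4.77 and 6.63, and well above background in 18 of 36 pigs, which included none of the 6 LW pigs at 30 °C. The widest gap of 0.13 put 21 of 36 pigs on the side that TMEM176B gave them. The 3 F1 pigs that were high for TMEM176B had the lowest TMEM176A values of their groups, 5.22 at 24 °C and 5.15 and 5.04 at 30 °C, and in CR pigs the TMEM176A values of both sides overlapped. The signal of this probe was too near background to say whether the neighbour had 2 levels.

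NPSR1 was read by 2 probes that put 36 of 36 pigs on the same side. On the lead probe the CR pigs at 24 °C had values of 9.28, 10.24, 6.69, 9.45, 10.15 and 9.70, and those at 30 °C had 9.06, 9.13, 6.27, 9.11, 10.08 and 10.10. So 10 of 12 CR pigs were high, and replicate 3 of each temperature was low. In F1 pigs 3 of 12 were high, at 9.47 at 24 °C and at 9.08 and 9.38 at 30 °C, and the other 9 lay between 5.94 and 6.66. The 12 LW pigs lay between 5.34 and 6.44. On the other probe the same 13 pigs lay between 7.21 and 8.37 and the other 23 between 4.89 and 5.87, with a gap of 1.34 in place of 2.37. Over their full 60 bases the 2 probes share no run of 16, so the agreement for this receptor gene came from separate stretches. On the second probe the spot was well above background in 7 of the 23 low pigs, against 22 of 23 on the lead probe.

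SH3KBP1 had its low level mainly in the cross. In F1 pigs 8 of 12 were low, between 7.33 and 7.87, and 4 were high, between 8.70 and 8.75. In LW pigs 3 of 12 were low, at 7.49 and 7.81 at 24 °C and at 7.88 at 30 °C, and 9 were high, between 8.81 and 9.31. All 12 CR pigs were high, between 8.46 and 9.27. The 4 high F1 pigs thus lay within 0.06 log2 units of each other, between the extremes of the high CR pigs. The other probe named for this adaptor gene lay between 5.11 and 5.87 and was well above background in 23 pigs. Its widest gap was 0.05, so it did not separate the pigs. Whether it reads the SH3KBP1 transcript was not established, since its strand was not checked. Its values are thus not counted against the lead probe.

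A probe that the annotation names by a sequence entry and not by a gene has the same 60 bases as the SH3KBP1 lead probe, and it shows how well a level is repeated on a second spot of each array. Its values ran from 7.01 to 8.79 and its gap was 0.58, the same as for the lead probe. It put 36 of 36 pigs on the same side. Its values lay apart from those of the lead probe by a median of 0.47 log2 units and by at most 0.68, so the level of a probe carried an offset of that size while the order of the pigs across the gap did not change. No other of the 15 probes had such a twin.

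C1D, ZNF642 and CACNA2D1 differed by breed without 2 levels. For C1D the CR pigs lay between 9.50 and 9.88, the F1 pigs between 10.13 and 10.76 and the LW pigs between 10.55 and 10.85, so no CR pig overlapped a pig of the other breeds. Such a separation, with all 12 CR pigs below the 24 others, was found in 0.0065% of 46162 probes, which is 3 probes with this one among them, and CR and LW pigs did not overlap, in either direction, in 0.279%. It was not seen on the other C1D probe. There CR pigs lay between 6.62 and 7.02, F1 pigs between 6.56 and 6.89 and LW pigs between 6.59 and 7.09. The strand of that probe was not checked, so whether it reads the C1D transcript was not established. The missing separation is therefore not counted against the lead probe. The array gives the name C1D to the second probe and a locus number to the lead probe, so that both read the transcript of this exosome partner rests on the RefSeq list and was not tested.

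ZNF642 was highest in the cross. The F1 values were 9.25 to 9.37 at 24 °C, and 8.71, 9.29, 9.43, 9.25, 9.28 and 9.29 at 30 °C. Thus 11 of 12 F1 pigs lay above all CR pigs, whose highest value was 9.04, and above all LW pigs, whose highest was 9.20, and replicate 1 at 30 °C lay below most of them. On the other probe named for this zinc finger gene 1 of 12 F1 pigs lay above all CR pigs. The strand of that probe was not checked either, so this figure is not counted against the lead probe. CACNA2D1 was also higher in the cross, with F1 pigs between 9.45 and 10.03, CR pigs between 9.23 and 9.56 and LW pigs between 9.43 and 9.67. On this probe 10 of 12 F1 pigs lay above all CR pigs and 9 above all LW pigs. On the second probe of the calcium channel subunit the figures were 7 and 7, with F1 means of 9.80 ± 0.13 against 9.64 ± 0.07 in CR and 9.66 ± 0.07 in LW pigs (SD, n = 12 each). On the lead probe the means were 9.77 ± 0.18 in F1, 9.39 ± 0.12 in CR and 9.53 ± 0.07 in LW pigs (SD, n = 12 each), so the cross had the highest mean on both CACNA2D1 probes.

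**Figure D2:**
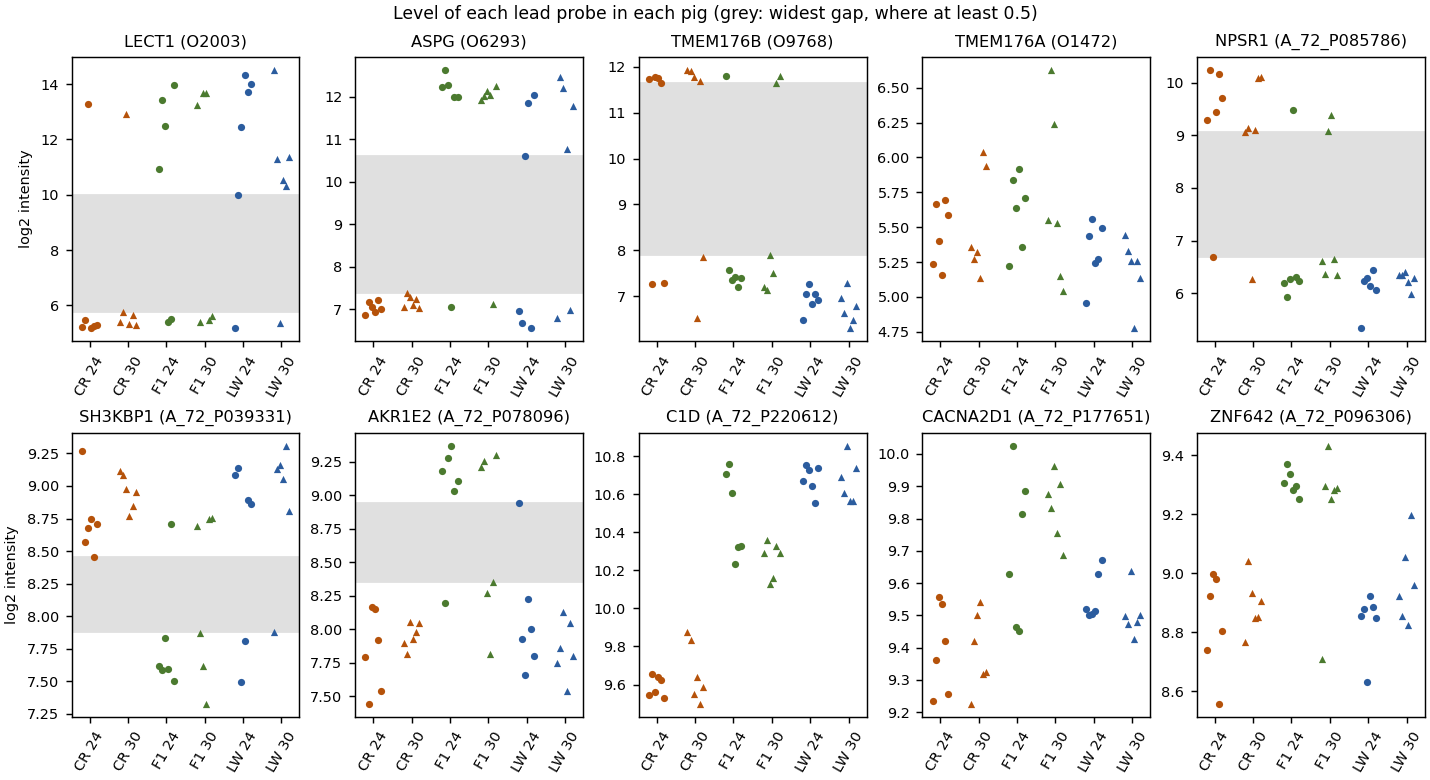
Log2 intensity of the lead probe of each gene in each of the 36 pigs, by breed and labelled temperature (circles, 24 °C, and triangles, 30 °C), with the widest gap shaded where it is at least 0.5. LECT1, ASPG, TMEM176B and NPSR1 have empty bands of 2.37 to 4.23 log2 units, SH3KBP1 and AKR1E2 have narrow bands, and C1D, CACNA2D1 and ZNF642 shift by breed without a band.

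The 6 genes with a gap of at least 0.5 did not mark the same pigs. They gave 18 different patterns over the 36 pigs, and 10 of the patterns were held by 1 pig each. The most common pattern, TMEM176B, NPSR1 and SH3KBP1 high and the other 3 low, was held by 6 pigs, all CR. The next were NPSR1 and SH3KBP1 high, held by 4 CR pigs, and LECT1, ASPG and SH3KBP1 high, held by 4 LW pigs. The remaining 2 CR pigs, replicate 3 at each temperature, were high for LECT1, TMEM176B and SH3KBP1 and low for NPSR1. So the 12 CR pigs held 3 patterns, and in each of them LECT1 and NPSR1 stood on opposite sides.

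Of the 15 pairs among the 6 genes, LECT1 and ASPG agreed in the most pigs, 26 of 36, of which 13 were high for both and 13 low for both. Within breeds they agreed in 10 of 12 CR, 9 of 12 F1 and 7 of 12 LW pigs. ASPG and AKR1E2, and TMEM176B and NPSR1, agreed in 24 of 36 each. For TMEM176B and NPSR1 the agreement was complete in LW pigs, where both were low in 12 of 12, and it was 6 of 12 in CR and 6 of 12 in F1 pigs. LECT1 and NPSR1 agreed in 8 of 36 pigs, with 0 of 12 in CR, 6 of 12 in F1 and 2 of 12 in LW pigs. These counts carry the breed levels that chose the genes, so an agreement over all breeds is not read as a link between genes.

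**Figure D3:**
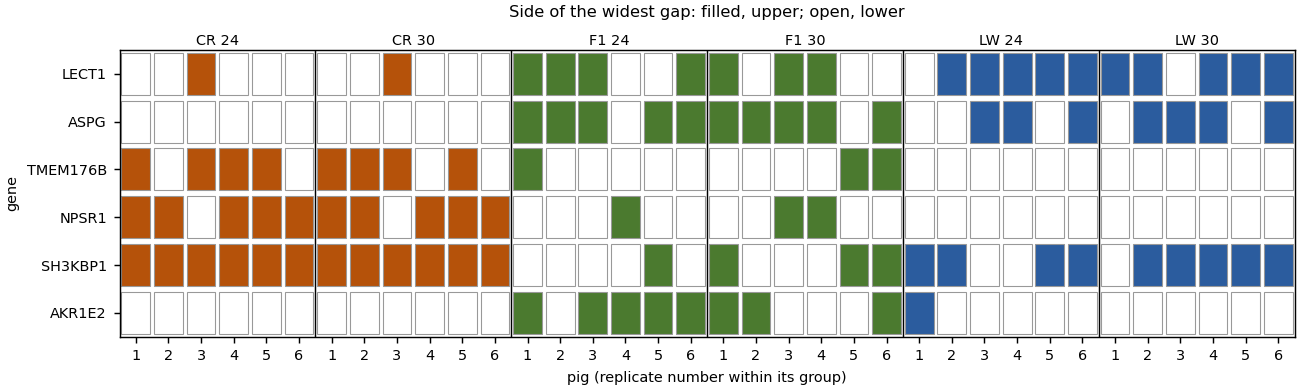
Side of the widest gap for 6 genes (rows) in the 36 pigs (columns, by group and replicate number), filled where the pig is high and open where it is low. CR pigs are high for SH3KBP1 and mostly for NPSR1 and TMEM176B, LW pigs are high mostly for LECT1, SH3KBP1 and ASPG, and F1 pigs hold every gene in both states.

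Other probes were searched for the same division of pigs, counting those with a gap of at least 1 that placed at least 34 of 36 pigs as the lead probe did, or opposite to it. LECT1, ASPG and TMEM176B had none, and neither had AKR1E2 with the limit lowered to 0.5. For NPSR1 the named gene found was C1GALT1, which encodes a galactosyltransferase that builds the core of mucin-type sugars, with a gap of 1.04 and 34 of 36 pigs alike. Its spot was well above background in 14 of 36 pigs. The exceptions were the CR pig of replicate 3 at 24 °C, which was high for C1GALT1 at 7.54 and low for NPSR1 at 6.69, and the F1 pig of replicate 4 at 24 °C, which was low for C1GALT1 at 5.15 and high for NPSR1 at 9.47. C1GALT1 was not among the 3 genes listed on either side of NPSR1 in the pig annotation.

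Besides the second NPSR1 probe, 3 unnamed probes with gaps of 2.45, 1.67 and 1.17 and another with 0.57 placed 36 of 36 pigs as NPSR1 did. They are mentioned after their values were seen, and without a genome their place could not be established. The probe with the gap of 2.45 was well above background in all 36 pigs, and the other 3 in 19, 14 and 13. On the probe with the gap of 2.45 the 13 high pigs lay at 9.29 or above and the 23 low pigs at 6.84 or below, much like the receptor probe itself. The division of pigs that NPSR1 showed was thus carried by at least 6 probes, and that of LECT1, ASPG or TMEM176B by 1 each.

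For SH3KBP1, a probe of PDHA1 with a gap of 0.60 placed 34 of 36 pigs alike, which was found after the limit on the gap had been lowered to 0.5. PDHA1 encodes a subunit of the pyruvate dehydrogenase complex, and both genes lie on the X chromosome, 2 protein-coding places apart in the pig annotation. On the PDHA1 probe 27 pigs lay at 13.04 or above and 9 at 12.44 or below, all of the latter F1 or LW pigs. The exceptions were LW replicate 1 at 30 °C, at 13.33 for PDHA1 and 7.88 for SH3KBP1, and F1 replicate 3 at 24 °C, at 13.27 and 7.83. Of the 4 other PDHA1 probes, 1 put 32 of 36 pigs on the SH3KBP1 side with a gap of 0.17, and the other 3, with gaps of 0.11 to 0.15, put 28 to 31 pigs on the opposite side. The probes of EIF1AX, 3 places away on the other side, had gaps of 0.05 to 0.07. They put 31, 22 and 12 of 36 pigs on the SH3KBP1 side. Gaps as narrow as those of EIF1AX and of these 4 PDHA1 probes lie among the bulk of the probes. Their counts are thus not read as a direction. For ASPG and ZNF642 no neighbours could be listed from the annotation used, so theirs were not examined. Of the 6 annotated neighbours of each other gene, 3 had a tested probe for LECT1, TMEM176B, AKR1E2 and C1D, 1 for NPSR1 and 0 for CACNA2D1. For AKR1E2 the 3 include AKR1C1 at places -3 and -1, read by the same probes. Among these no probe placed 34 pigs like the lead probe, and the widest gap of any was 0.33, on a probe of KCNH2 near TMEM176B.

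**Figure D4:**
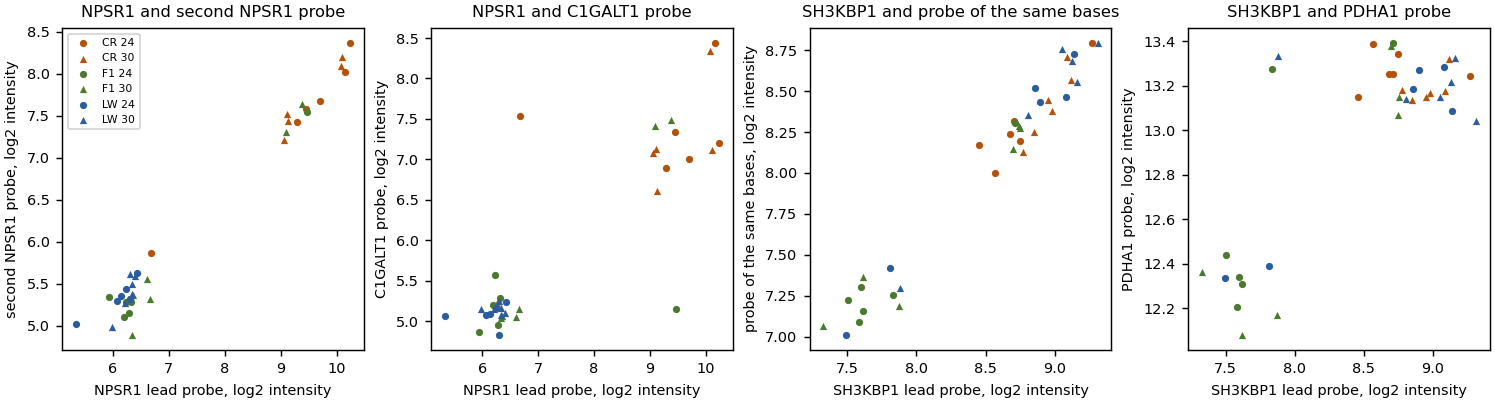
Log2 intensity of another probe against that of the lead probe in 36 pigs, for NPSR1 with its second probe and with C1GALT1, and for SH3KBP1 with the probe of the same bases and with PDHA1. The second NPSR1 probe and the SH3KBP1 twin split all 36 pigs alike, and 2 pigs depart from the split for C1GALT1, in opposite corners, and 2 for PDHA1, both high for PDHA1 and low for SH3KBP1.

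Temperature was then tested on the 15 probes, with limma on all 46222 and Benjamini-Hochberg adjustment. A total of 545 tested probes changed, which is 1.18%, and none of the 15 did. At an unadjusted p under 0.05 the share was 9.74% of all tested probes and 0 of the 15. The adjusted p of the 15 ran from 0.522 to 0.9998 (limma). Of the 15 estimates 11 were above 0, with 5 genes entering by 2 probes each, against 25688 of all 46222 tested probes. The median estimate was 0.03 against 0.01 over all tested probes. The median size was 0.06 log2 units for the 15 and 0.05 for all.

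The lowest p was that of the SH3KBP1 lead probe. Its mean was 8.36 ± 0.63 at 24 °C and 8.67 ± 0.58 at 30 °C (SD, n = 18 each), a difference of 0.31 with a SE of 0.15 and an adjusted p of 0.522 (limma). It was positive in each breed, with 0.22 in CR, 0.36 in F1 and 0.34 in LW pigs, and 11 of 18 pigs were high at 24 °C against 14 of 18 at 30 °C. For LECT1 the difference was -0.57 with a SE of 1.09, which was the largest SE of all tested probes, and for ASPG it was 0.36 with a SE of 0.60. With replicate 3 of the CR pigs left out at 30 or at 24 °C the LECT1 difference was -0.98 or -0.18, and with F1 replicate 4 at 24 °C or F1 replicate 5 at 30 °C left out that of ASPG was 0.11 or 0.63. For LECT1 a difference of 1 log2 unit would have been smaller than this SE, and each of the 6 groups held LECT1 values on both sides of the gap. The numbers of high pigs at 24 and 30 °C were 10 and 9 for LECT1, 8 and 9 for ASPG, 5 and 6 for TMEM176B, 6 and 7 for NPSR1 and 6 and 3 for AKR1E2.

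The interaction of breed and temperature was called for none of the 46222 probes by limma, and at an unadjusted p under 0.05 it was found for 4.67% of them and for 1 of the 15. That was the C1D lead probe, with an unadjusted p of 0.0279 and an adjusted p of 0.9999. Its change was 0.07 in CR, -0.23 in F1 and -0.01 in LW pigs. The F1 values were 10.71, 10.76, 10.61, 10.23, 10.32 and 10.33 at 24 °C and lay between 10.13 and 10.36 at 30 °C, so 3 F1 pigs of the cooler group stood apart from the other 9. On the second C1D probe the interaction p was 0.307 before adjustment.

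**Figure D5:**
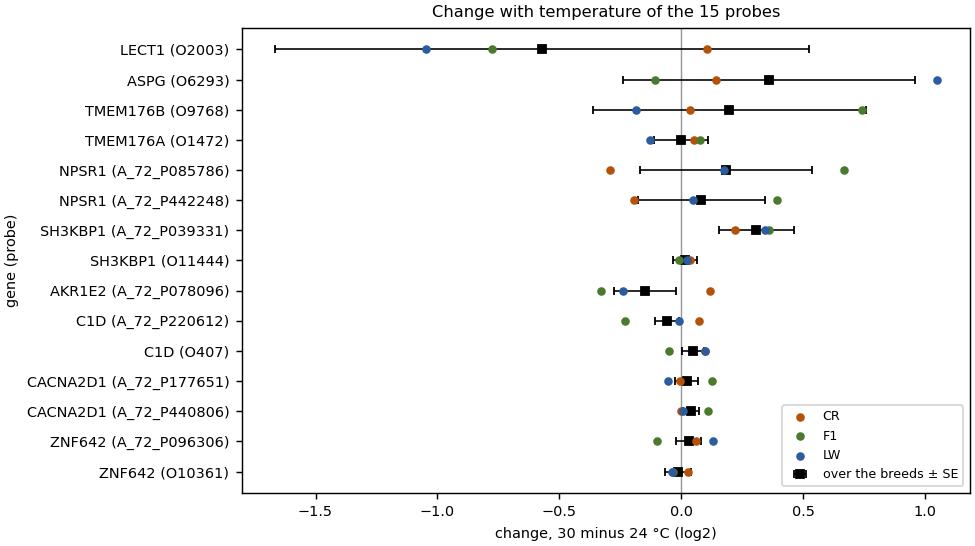
Change from 24 to 30 °C in log2 units for the 15 probes, with the limma estimate over the breeds (squares, bars are 1 SE) and the difference of means within each breed (coloured points). The estimates lie between -0.57 and 0.36, with the longest bars on the genes with 2 levels.

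Genes related to the members, by family or by a shared complex, were listed with earlier results known, and 36 of 59 had tested probes, 68 in all. None of the 68 had a gap of 1, and 1 had a gap of 0.5 or more, against 1.38% of all probes. For temperature 5 of the 68 changed, against 1.18% of all probes. At an unadjusted p under 0.05 (limma) there were 9 of the 68, against 9.74% of all probes. All 5 were lower at 30 °C and belonged to the aldo-keto reductases listed beside AKR1E2. A single AKR1C1 probe fell by 0.51 with a SE of 0.12 and an adjusted p of 0.0229 (limma), and the other 3 probes of that gene differed by -0.02 to 0.05 with adjusted p of 0.891 to 0.98 (limma). The other 4 were probes of AKR1CL1, which fell by 0.55 to 0.64 with adjusted p of 0.032 to 0.0469 (limma), and the widest gap of the 68, 0.73, was on one of these. AKR1E2 differed by -0.15 with a SE of 0.13. AKR1C genes are close copies of each other, so the split of signal between them is uncertain. No related gene of LECT1, NPSR1 or ZNF642 was tested.

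Marker genes of the cell types that a gland sample may hold were set beside these levels. Of 10 follicular cell markers 6 were tested, and all 6 were well above background in every pig, with a mean log2 level between 13.70 and 14.25. LECT1 is a cartilage gene, and of 14 other cartilage markers 8 were tested, 4 of them well above background in every pig. Their mean lay between 6.79 and 7.19 in CR, between 6.77 and 7.10 in F1 and between 6.71 and 7.41 in LW pigs. The breeds thus overlapped in this mean, while LECT1 differed by several log2 units between pigs. Above the median of this mean lay 10 of the 19 pigs high for LECT1 and 8 of the 17 low pigs. A single marker could range more widely than the mean, as MATN3 did, from 5.43 to 8.21. Of the 11 markers of myeloid and dendritic cells, in which the TMEM176 genes are known, 8 were tested, with means of 8.28 to 9.02 in CR, 8.32 to 8.93 in F1 and 8.06 to 8.94 in LW pigs. Above the median of these means lay 5 of the 11 pigs high for TMEM176B and 13 of the 25 low pigs. For LECT1 they were 6 of the 19 high pigs and 12 of the 17 low pigs. Endothelial markers, 5 of 5 tested, had group medians of 12.06 and 12.18 in CR pigs and of 12.24 to 12.37 in the other 4 groups, thus lower in the breed in which TMEM176B and NPSR1 were mostly high and LECT1 low. Above the median of their mean lay 1 of the 11 pigs high for TMEM176B and 17 of the 25 low pigs. For LECT1 they were 12 of the 19 high pigs and 6 of the 17 low pigs. All these counts carry the breed levels. Adipocyte markers, also 5 of 5 tested, had medians of 9.67 and 10.03 in LW pigs and of 10.39 to 10.82 in the other 4 groups. The part of these cell types in the levels of the 10 genes was not tested.

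The arrays lay on 5 slides, of which 4 held all 6 groups and the remaining slide 3 groups. High pigs of LECT1, ASPG, TMEM176B, NPSR1 and SH3KBP1 were present on every slide, and AKR1E2 had 0 high pigs of 8 on slide 2 and 1 to 4 on the others. The share of probes well above background ran from 72.8% to 80.3% over the arrays, and no spot was saturated.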

How the data were processed

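Thyroid RNA, carrying the Cy3 dye, was read on Agilent pig expression arrays in 1 colour. Per the file headers, the scanner files hold the mean and median pixel intensity, the local background and a processed intensity of each spot, read with Agilent Feature Extraction 10.10.1.1 as given in the submitters' processing notes. The authors took the median intensity without background subtraction, applied quantile normalization and deposited log2 values of 46097 probes. Here the log2 values were remade in that way with limma 3.58.1 in R 4.3.3. Control spots (1319) were left out and 106 non-uniform spots set to missing, which came to within a median of 0.00556 of what the authors deposited. A probe was tested when it was well above background on at least 5 of 6 arrays of a group.

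The members and lists were chosen with earlier results of these data known. The lead probe of a gene was the one named in that choice (LECT1, ASPG, C1D) or else the one with the widest gap. Alike genes were those with a gap of at least 1 and at least 34 of 36 pigs on the same or on the opposite side. The limit of 0.5, the shared bases and the neighbours were added after seeing the data. Temperature was fitted with breed as a term (lmFit, eBayes), and the interaction on 6 group means. The study's terms for pen, slaughter day, sire and dam are not in the labels. No replicate of a pig was made, so SDs are over pigs. Probe names came from the files, of which 18959 of the tested probes matched a current symbol, 2219 an accession, 1380 a gene number and 171 an older symbol, and 23493 were unmatched. The order of neighbouring genes came from the RefSeq list of assembly Sscrofa11.1. The files give no genome position of the probes and no build, so none is reported. Precision is limited by the count of arrays and by how far a spot lies above background. The fit was tested on simulated data. Alternatives were 3 other scalings or background corrections, the deposited values, 2 other filters, slide or slide position as a block, a model without breed, and each pig left out.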

Additional observations from a re-analysis of the deposited data

Results flagged for a closer look

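In 60 sets of 6 values, which are the lead probes of the 10 genes in 6 groups, 16 single pigs stood apart from their group by a gap that was an unusually large share of its whole range. Chance marks about 1 group in 20, so about 3 would be found without any pattern, and a gene with 2 levels can be marked wherever a single pig of a group is on the other side. Replicate 3 of the CR pigs was marked at both temperatures for LECT1 (share of the range 0.966 at 24 °C and 0.942 at 30 °C, both high) and for NPSR1 (0.731 and 0.728, both low). Replicate 4 of the F1 pigs at 24 °C was low for ASPG (0.885) and high for NPSR1 (0.891). These 3 pigs were marked for more than 1 gene, and the other 10 marked pigs for 1 gene each.

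For ASPG, replicate 5 of the F1 pigs at 30 °C was low, at 7.13 against 11.93 to 12.26 in the others (0.936). For TMEM176B, replicate 1 of the F1 pigs at 24 °C was high, at 11.79 against 7.21 to 7.57 (0.922). The LW pig of replicate 1 at 24 °C was low for NPSR1 within the low level, at 5.34 against 6.07 to 6.44 (0.664). For SH3KBP1, replicate 1 of the CR pigs at 24 °C was high within the high level (0.638), replicate 5 of the F1 pigs at 24 °C was high (0.729) and replicate 1 of the LW pigs at 30 °C was low (0.648). Replicate 2 of the F1 pigs at 24 °C was low for AKR1E2, at 8.19 against 9.03 to 9.37 (0.714). Of the genes without 2 levels, CACNA2D1 was high in replicate 3 of the LW pigs at 30 °C (0.642), and ZNF642 was low in replicate 1 of the F1 pigs at 30 °C (0.75) and in replicate 3 of the LW pigs at 24 °C (0.747). The 16 values came from 13 pigs.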

How the results depend on the processing

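For LECT1, ASPG, TMEM176B, NPSR1, SH3KBP1, AKR1E2, C1D and ZNF642 the 36 pigs lay on the same side of the gap under each of the 4 other scalings. The SH3KBP1 gap was 0.47 under normexp and 0.54 to 0.68 under the other scalings. For TMEM176A and CACNA2D1 the division moved. The processed signal left 12 of 36 pigs on their side for TMEM176A and 16 of 36 for CACNA2D1. The share of all probes with a gap of at least 1 was 0.563% on the processed signal and 1.07% when 1 pig sufficed on a side, and 0.0758% had a gap of at least 2. None of the 15 probes was called for temperature under any setting in which it was tested. The filter that asks for a spot well above background on all 36 arrays left out LECT1, TMEM176A, both NPSR1 probes and the second SH3KBP1 probe. That SH3KBP1 probe also had no result on the deposited values. With a pig left out the lowest adjusted p was 0.349 (limma). For the interaction none was called under the other scalings, filters and blocks, and leaving out a pig or the breed term was not run. The count over all probes was 441 to 633 under the other settings and 460 to 588 with a pig left out. Temperature differences near 0 changed sign without a call. With a pig left out, the difference of LECT1 was -0.98 to -0.176, that of ASPG 0.106 to 0.633 and that of the NPSR1 lead probe 0.0382 to 0.367, and replicate 3 of the CR pigs gave both ends for LECT1 and NPSR1. That of TMEM176A was -0.23 on the processed signal and -0.0605 to 0.0386 with a pig left out. That of the second ZNF642 probe was 0.00263 under normexp and -0.0326 to 0.00395 with a pig left out. With a pig left out, that of TMEM176B was -0.00201 to 0.437 and that of the second NPSR1 probe -0.0289 to 0.215. The cause was not tested. No paired analysis was possible because the labels give no replicate numbers. Dim probes, such as those of TMEM176A and the low level of LECT1, limit what can be said of low levels.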
